A study of Mus musculus with 72 samples.

Results

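The 7 genes described here, Ttc22, Adamts9, Cd24a, Nedd9, 1700019P21Rik, Gm31447 and 8430426J06Rik, were taken by symbol from a published list that ties testis expression to altered methylation of sperm DNA in the oldest F1 males. They are 7 of 37108 symbols in the count tables. Dazl and Sycp1, which the published list also names, are not among them. All 7 are listed in 6 of the 7 experiments, and 6 are listed in the E18.5 table, which lacks Gm31447. The genes were chosen by their expression in the 39-week contrast of IVF against natural testes, so that contrast is described below without a test, and the other 6 experiments carry the tests. Sperm methylation was not analysed here.

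RNA-Seq was available for 72 libraries of 14 groups. Naturals (4 at E18.5, 5 at 12 weeks, 4 at 39 weeks) came from CF-1 females mated with SJL/B6 males that were heterozygous for GFP. IVF males (6, 5 and 6) came from superovulated CF-1 eggs fertilised with sperm of such males, cultured to blastocysts in KSOM+AA medium and transferred to pseudopregnant CF-1 recipients, so that hormone treatment, fertilisation, culture and transfer differ together between the groups. Pups of the adult F1 cohorts were delivered by C-section, later for IVF than for naturals, and fostered, so the day of delivery differs with them. Adult F1 material is labelled testis, and the methods describe it both as seminiferous tubules and as a piece of frozen testis, so its content of interstitial cells is not settled by them. F2 mice were offspring of 12-week F1 males, natural or IVF conceived, and wild-type CF-1 females, were themselves conceived by mating, and were sampled at 12 weeks: male liver (5 natural, 5 IVF), female liver (5 and 6), testis (5 and 7) and ovary (4 and 5). Litters and sires are not given in the labels, so the p-values measure the spread between these samples, which may share a litter or sire. Nor do the labels say whether F2 tissues came from the same mice, which the tests between tissues treat as independent.

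DNA methylation marks cytosines that stand before a guanine, and methylation of a promoter rich in such CpG sites commonly goes with silence of its gene. Male germ cells renew their methylation before birth, and spermatogenesis then uses a large set of genes, many of them noncoding, that other tissues hold silent. Of the 7 genes, 4 code for proteins. Ttc22 encodes a protein with tetratricopeptide repeats, a fold that binds other proteins. Adamts9 encodes a secreted metalloprotease that cleaves versican in extracellular matrix. Cd24a encodes a small, heavily glycosylated protein of the cell surface, and Nedd9 encodes a Cas family scaffold that links integrins and focal adhesion kinase to cell movement and to Aurora A. The other 3 genes are long noncoding RNAs whose functions are not known.

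On GRCm38, Ttc22 lies at chr4:106622449-106640196, Adamts9 at chr6:92772699-92944450, Cd24a at chr10:43579169-43584265 and Nedd9 at chr13:41309916-41487362. The noncoding genes 1700019P21Rik, Gm31447 and 8430426J06Rik lie at chr1:138876272-138876950, chr12:69129833-69145076 and chr15:81242654-81251862. Adamts9 overlaps 4 other annotated genes, Nedd9 overlaps 2 and Gm31447 overlaps 1 pseudogene, and the strand setting of the counting is not given in the sources used here, so counts of these 3 genes can include reads of their overlapping partners. Promoters of 300 bases, from 250 before to 50 after the start, were held for 6 of the 7 genes in RefSeq. They ranged from 5 CpG sites in 1700019P21Rik through 7 in Gm31447, 8 and 6 in the 2 promoters of 8430426J06Rik, 13 in Ttc22 and 21 in Nedd9 to 25 in Adamts9, against a median of 7 over 32851 promoters of this length. At least as many sites were held by 18.4% of all promoters for Adamts9, by 37.9% for Ttc22 and by 52.1% for Gm31447. These 3 are shown with each CpG in capitals, Ttc22 because it alone was lower in IVF testes at 39 weeks, Adamts9 because it is the richest in CpG, and Gm31447 because it also differed in F2 testes. They span chr4:106622199-106622498 (plus strand), chr6:92943485-92943784 (minus strand) and chr12:69129583-69129882 (plus strand).
Ttc22: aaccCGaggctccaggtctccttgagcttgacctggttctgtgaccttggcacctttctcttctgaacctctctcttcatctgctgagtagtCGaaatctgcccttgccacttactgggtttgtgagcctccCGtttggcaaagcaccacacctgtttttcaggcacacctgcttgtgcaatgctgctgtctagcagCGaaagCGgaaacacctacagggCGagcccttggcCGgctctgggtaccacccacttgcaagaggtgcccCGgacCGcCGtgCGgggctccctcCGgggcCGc
Adamts9: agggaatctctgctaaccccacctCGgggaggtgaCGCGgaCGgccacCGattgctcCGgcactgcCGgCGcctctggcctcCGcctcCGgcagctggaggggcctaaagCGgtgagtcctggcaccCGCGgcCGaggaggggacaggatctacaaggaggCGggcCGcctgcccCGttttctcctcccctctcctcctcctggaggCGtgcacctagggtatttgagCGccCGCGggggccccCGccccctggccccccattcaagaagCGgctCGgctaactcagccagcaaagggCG
Gm31447: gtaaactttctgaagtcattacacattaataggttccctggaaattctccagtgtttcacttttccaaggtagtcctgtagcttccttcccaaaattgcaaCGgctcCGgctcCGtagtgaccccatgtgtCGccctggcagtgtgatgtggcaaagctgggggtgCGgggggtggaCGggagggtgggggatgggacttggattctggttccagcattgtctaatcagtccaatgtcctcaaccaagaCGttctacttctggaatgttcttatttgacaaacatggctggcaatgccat

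Levels are given as CPM, the counts of a gene scaled to library size by TMM. Library totals ranged from 543745 to 90441392 counts, and both mates of a read pair appear to be counted, since 58.6% to 94.1% of low counts were even numbers. The labelled tissues were checked against cell type markers. Hepatocyte markers summed to 63580 CPM or more in each liver library and to at most 71.1 CPM in ovaries. Markers of elongating spermatids summed to 10690 CPM or more in each adult testis library and to at most 4.65 CPM at E18.5. A few libraries held markers of another tissue. Natural replicate 1 at E18.5 had 434 CPM of hepatocyte markers against 0.154 to 14.5 CPM in the other 9, and natural male livers 1 and 5 had 78.2 and 117 CPM of elongating spermatid markers against 15.0 CPM or less in the other 8. Of the ovaries, natural replicate 2 stood apart, with 1068 CPM of the oviduct gene Ovgp1 against 1.57 to 6.29 CPM in the other naturals and 1.85 to 70.3 CPM in IVF ovaries. In male livers, IVF replicate 3 had the smallest total of the series, and all 7 genes were at 0 counts in it.

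At 39 weeks, Ttc22 was lower and the other 6 genes were higher in IVF testes than in naturals. These are the values that placed the genes on the list. Ttc22 measured 8.46, 10.0, 9.60 and 13.1 CPM in the 4 natural testes, and its lowest, median and highest values in the 6 IVF testes were 3.58, 5.21 and 6.73 CPM. Each IVF testis lay below each natural one, with group means of 10.3 ± 1.98 (SD, n = 4) and 5.18 ± 1.08 CPM (SD, n = 6).

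Among the higher protein-coding genes, Adamts9 measured 0.819, 2.44, 2.40 and 3.47 CPM in naturals and ranged from 5.04 to 6.29 CPM, median 5.94, in IVF testes. The natural value of 0.819 rested on 9 counts. Nedd9 measured 2.73, 2.70, 3.15 and 2.26 CPM in naturals, and 4.27 to 5.90 CPM with a median of 5.23 in IVF testes. For both genes the IVF libraries were close together, with SDs of 0.432 CPM for Adamts9 and 0.601 CPM for Nedd9. Cd24a measured 4.28, 4.00, 3.48 and 2.91 CPM in naturals, and its IVF values ran from 6.09 through a median of 6.70 to 15.7 CPM. Here the IVF group was not uniform, since IVF replicates 2 and 6 reached 15.7 and 13.5 CPM and the other 4 lay between 6.09 and 6.98 CPM.

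The 3 noncoding RNAs were also higher in IVF testes at 39 weeks. 8430426J06Rik measured 6.28, 6.09, 5.13 and 3.47 CPM in naturals and 8.52 to 14.7 CPM, median 9.38, in IVF testes. Gm31447 measured 4.64, 7.22, 9.27 and 4.20 CPM in naturals and 9.66 to 16.9 CPM, median 12.7, in IVF testes, so that the highest natural and the lowest IVF library were nearly level. 1700019P21Rik measured 2.09, 2.78, 0.497 and 1.53 CPM in naturals and 2.49 to 7.98 CPM, median 5.52, in IVF testes, and was the 1 gene of the 7 whose groups overlapped.

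**Figure D1:**
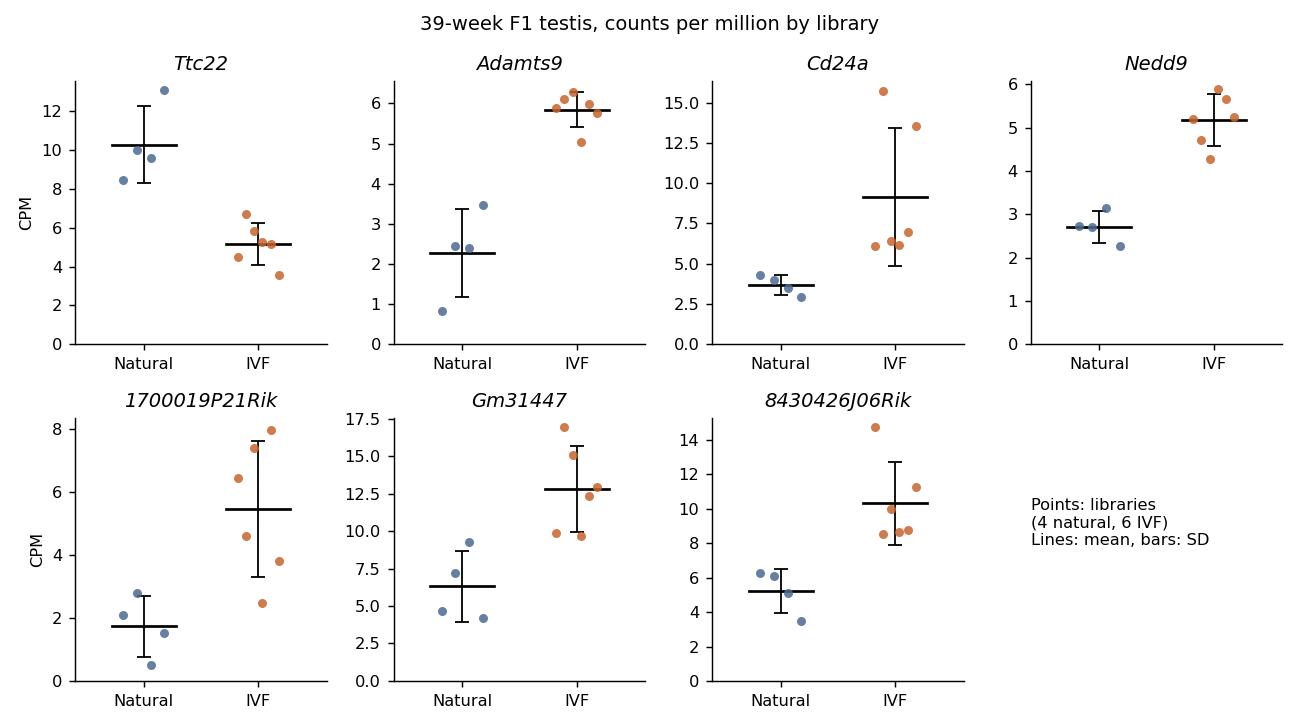
CPM (vertical axis) of each gene in the 4 natural and 6 IVF libraries of 39-week F1 testis, with the mean and SD. Ttc22 is lower in IVF, the other 6 genes are higher, and 1700019P21Rik alone overlaps between the groups.

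The fitted log2 fold changes at 39 weeks were -0.99 for Ttc22, 0.93 for Nedd9, 0.98 for 8430426J06Rik, 1.02 for Gm31447, 1.32 for Cd24a, 1.35 for Adamts9 and 1.66 for 1700019P21Rik. Groups that did not overlap were seen for 6 of the 7 genes and for 3.23% of the 20083 genes tested, and 0.00996% of them were called, a call being an edgeR adjusted p below 0.05 together with a fold above 1.5. Since the contrast chose the genes, nothing is read from these counts. Library depth and base composition moved with conception in the same libraries. Totals were 11438213 to 12705316 counts in naturals and 14033176 to 23318391 in IVF testes, and the log2 fold change of all genes fell with transcript GC content (Spearman rho = -0.42 across 17587 genes, which are not independent). Ttc22 had a GC content of 59.8% and the 6 higher genes had 43.0% to 49.7%. With the GC trend of each library removed, the log2 fold change was -0.89 for Ttc22, 0.78 for 8430426J06Rik and 0.83 for Nedd9. It was 0.89 for Gm31447, 1.12 for Cd24a, 1.31 for Adamts9 and 1.51 for 1700019P21Rik. The same libraries chose the genes and their directions, so nothing is read from these values, and the part of GC was not tested. Markers of Sertoli cells summed to 122 to 163 CPM in naturals and 142 to 178 CPM in IVF testes, and those of Leydig cells to 656 to 1187 and 504 to 1140 CPM. Sums were 70.3 to 133 and 62.7 to 87.7 CPM for peritubular myoid cells and 787 to 847 and 776 to 872 CPM for spermatocytes. For elongating spermatids they were 12866 to 27155 and 13670 to 20616 CPM. Spermatogonia markers summed to 593 to 817 CPM in naturals and 623 to 809 CPM in IVF testes, and round spermatid markers to 773 to 1183 and 909 to 1111 CPM. All of these overlapped between the groups. In stained sections the paper counted fewer spermatogonia, spermatocytes and round spermatids in IVF testes of this age. Fewer cells of a type and less RNA per cell cannot be told apart in whole tissue.

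At E18.5, none of the 4 genes that passed the filter was called by edgeR, against 0.221% of 15406 genes, and DESeq2 called none either. The number with an unadjusted p under 0.05 was 1 of 4 with each tool, against 17.7% of all genes with edgeR. Cd24a measured 62.4, 71.1, 81.7 and 71.8 CPM in natural testes and 77.3 to 134 CPM, median 90.7, in IVF testes. In 5 of 6 IVF testes Cd24a was above each natural value and the sixth lay within their range, and the log2 fold change of 0.42 (SE 0.14) had an adjusted p of 0.148 with edgeR's quasi-likelihood test. Nedd9 measured 273, 160, 168 and 159 CPM in naturals and 158 to 197 CPM in IVF testes. Natural replicate 1 alone was high, and it was the library with 434 CPM of hepatocyte markers, whose part in its Nedd9 level was not tested. Its log2 fold change was -0.08 (SE 0.14), and 0.15 without that library. Adamts9 differed by 0.12 (SE 0.13) and 8430426J06Rik, at 3.69 CPM or less in each library, by -0.41 (SE 0.53). Ttc22 reached at most 15 counts in a library and was not tested, and 1700019P21Rik was at 0 in all 10 libraries, which allows up to 0.363 CPM over the natural group. Natural testes were the shallower group, with 2904727 to 4869139 counts against 8500054 to 15745480.

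At 12 weeks, none of the 7 genes was called by edgeR or DESeq2, against 0.199% of 20113 genes, and the number with an unadjusted p under 0.05 was 0 with edgeR, against 12.9% of all genes, and 1 with DESeq2. Gm31447 was level, with means of 9.53 ± 3.13 CPM in naturals and 9.81 ± 0.682 CPM in IVF testes (SD, n = 5 each), and a log2 fold change of 0.04 (SE 0.19). For Adamts9, Nedd9 and 8430426J06Rik the log2 fold changes were 0.10 (SE 0.24), 0.16 (SE 0.19) and 0.11 (SE 0.17). 1700019P21Rik stood at -0.21 (SE 0.28), with 2.22 to 5.25 CPM in naturals and 2.20 to 4.53 CPM in IVF testes. Cd24a measured 5.53, 6.97, 3.70, 5.36 and 4.56 CPM in naturals and 4.16, 4.87, 11.7, 5.44 and 14.1 CPM in IVF testes. IVF replicates 3 and 5 were high and the other 3 lay within the natural range, so the log2 fold change of 0.62 (SE 0.34) did not pass (adjusted p = 0.478, edgeR).

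Ttc22 varied widely among adult testes. At 12 weeks it measured 6.32, 0.808, 6.26, 5.41 and 6.23 CPM in naturals and 6.05, 0.481, 8.02, 0.926 and 4.58 CPM in IVF testes. The low libraries, 1 natural and 2 IVF, held 8 to 16 counts each, and the other 7 held 86 to 128. In F2 testes it measured 4.62, 4.31, 5.01, 0.337 and 4.22 CPM in naturals and 5.71, 9.93, 2.06, 2.54, 1.40, 0.183 and 0.0891 CPM in offspring of IVF males. Low libraries were again found in both groups, and the IVF values were spread over the range rather than at 2 levels. What sets the low libraries apart was not tested. At 39 weeks the least value was 3.58 CPM. Those libraries chose the gene, so nothing is read from the absence of low libraries there.

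The SD of Ttc22 on the log2 scale was 1.23 and 1.67 in natural and IVF testes at 12 weeks and 1.55 and 2.17 in F2 testes, which exceeded the SD of 98.8%, 99.3%, 99.7% and 99.7% of genes whose mean level was within 1.5-fold. At 39 weeks the same shares were 29.4% and 42.3%. Those libraries chose the gene, and a wide spread would have worked against its listing, so no contrast between ages is read from them. Its chromosomal neighbours Lexm and Ttc4 stayed at 45.5 CPM or more and 133 CPM or more, respectively, in each 12-week F1 and F2 testis. Between the conception groups, Ttc22 had log2 fold changes of -0.32 (SE 0.77) at 12 weeks and -0.24 (SE 0.88) in F2 testes (adjusted p = 0.907 and 0.942, edgeR).

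**Figure D2:**
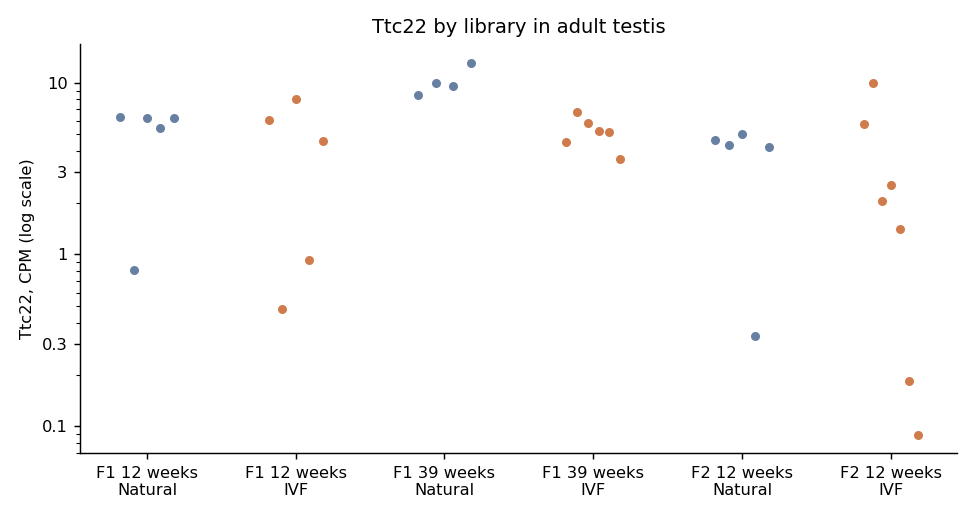
Ttc22 in CPM (log scale) for each library of adult testis, by generation, age and conception. Single libraries fall to 0.808 CPM or less in both groups at 12 weeks of F1 and F2. The 39-week libraries, which chose the gene, lie between 3.58 and 13.1 CPM.

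In F2 testes, Gm31447 was called and higher in offspring of IVF males, as the 1 of the 7 genes called, against 0.914% of 21454 genes in either direction and 0.48% in that direction. It measured 5.52, 3.87, 5.35, 4.50 and 3.84 CPM in the 5 natural F2 testes and 6.04, 7.40, 7.43, 7.53, 7.68, 8.47 and 8.58 CPM, in rising order, in the 7 IVF F2 testes. All 7 IVF libraries lay above all 5 natural ones, a separation that 1.89% of the genes tested had. The means were 4.62 ± 0.795 (SD, n = 5) and 7.59 ± 0.839 CPM (SD, n = 7), the log2 fold change was 0.72 (SE 0.13), and edgeR's adjusted p was 0.00400. The call held in each of 20 alternatives that gave a value, with log2 fold changes from 0.66 to 0.79 when 1 library was left out and an adjusted p of 0.0473 at most, with replicate number as a block. The higher group of F2 testes lay within the range of 12-week F1 testes, where natural libraries measured 5.56 to 14.1 CPM. Levels in F1 and F2 come from separate tables and were not tested against each other.

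Adamts9 pointed the other way in F2 testes. It measured 6.75, 6.74, 8.86, 4.53 and 6.24 CPM in natural F2 testes and 3.76 to 5.96 CPM, median 4.63, in IVF F2 testes. The 4 highest of the 12 libraries were natural, and natural replicate 4 lay inside the IVF range. The log2 fold change of -0.51 (SE 0.15) had an adjusted p of 0.102 (edgeR) and did not pass. Without natural replicate 4 it was -0.62 with an adjusted p of 0.0370, which ranged from 0.0370 to 0.268 over the alternatives. The remaining genes differed by 0.29 (SE 0.21) for Cd24a, -0.12 (SE 0.14) for Nedd9, -0.33 (SE 0.20) for 1700019P21Rik and 0.10 (SE 0.11) for 8430426J06Rik on the log2 scale, and none of them was called.

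**Figure D3:**
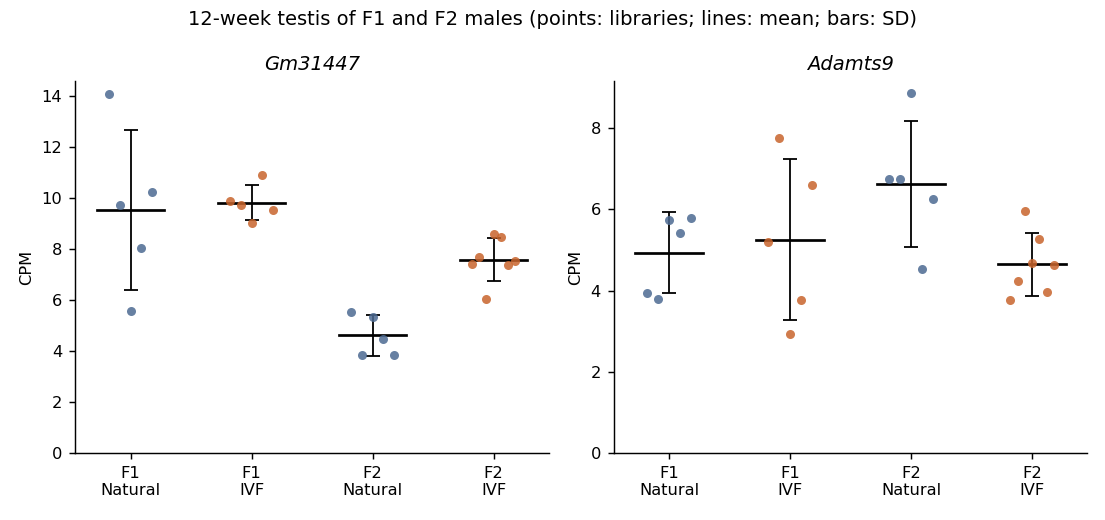
CPM of Gm31447 and Adamts9 in 12-week testes of F1 and F2 males, by library, with the mean and SD. In F2 the 7 IVF libraries of Gm31447 lie above the 5 natural ones, whereas for Adamts9 the groups overlap.

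In F2 livers the protein-coding genes were low and the noncoding RNAs were near 0. Of the 3 genes that passed the filter, Adamts9, Cd24a and Nedd9, none was called by edgeR or DESeq2 in males, whereas 31.1% of 11973 genes were called. None of the 3 had an unadjusted p under 0.05 with either tool, against 44.5% of all genes with edgeR. Cd24a measured 1.38, 1.08, 1.84, 1.16 and 2.02 CPM in natural males and 1.89, 6.21, 0, 1.40 and 4.04 CPM in IVF males. The IVF values ran from the lowest to the highest of all, and the log2 fold change was 0.92 (SE 0.47, adjusted p = 0.137, edgeR). In females, Cd24a was the 1 gene of 3 called, where 39.4% of 12525 genes were. It measured 1.83, 2.41, 2.26, 3.47 and 3.48 CPM in natural females and 0.744 to 2.48 CPM, median 1.32, in IVF females. The groups overlapped, and the log2 fold change was -0.90 (SE 0.36, adjusted p = 0.0483, edgeR). It lost the call without 8 of the 11 libraries in turn, without the filter on low counts (adjusted p = 0.116), with replicate number as a block (0.0945), and with the GC trend removed (-0.64, adjusted p = 0.185), which moved the median of all genes to -0.30.

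The difference between the sexes in the Cd24a response was tested by an interaction term and was called, at 1.82 (SE 0.59, adjusted p = 0.0110, edgeR), where 52.9% of 13073 genes were called. The Cd24a interaction was 1.52 (adjusted p = 0.0420, edgeR) with the GC trend removed. The median of all genes was then 0.66, and calls went from 3291 higher and 3622 lower to 4959 and 714. This setting also shifts all genes, so neither 1.52 nor the female value above gives the part of GC alone. Sex and count table cannot be told apart in this test. Depth and composition moved with conception in livers too. The log2 fold change of all genes followed GC content with a Spearman rho of -0.60 in males and 0.71 in females, and the Cd24a transcript was at 43.0% GC. Natural females had 3947645 to 34149676 counts and IVF females 13815244 to 90441392. Hepatocyte markers summed to 149251 CPM or more in natural and 117325 CPM or less in IVF female livers. Their part in the Cd24a result was not tested. Nedd9 differed by 0.71 (SE 0.39) in males and -0.10 (SE 0.29) in females, and Adamts9 by 0.00 (SE 0.60) and -0.51 (SE 0.62), without a call.

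In F2 ovaries none of the 3 genes tested was called by edgeR or DESeq2 and none had an unadjusted p under 0.05 with either, and of all 16502 genes 0 (0.0%) were called by edgeR, 1757 (10.6%) had an unadjusted p under 0.05 and DESeq2 called 88. Cd24a measured 9.10, 138, 8.22 and 9.83 CPM in natural ovaries and 17.8, 8.56, 9.32, 15.7 and 11.2 CPM in IVF ovaries. The natural ovary with 138 CPM was the one with 1068 CPM of Ovgp1, and its 5 epithelial markers summed to 405 CPM against 55.8 to 65.1 CPM in the other naturals and 65.9 to 124 CPM in IVF ovaries. The log2 fold change of -1.72 (SE 0.90) became 0.47 without that library. Adamts9 and Nedd9 were not high in it, and differed by -0.14 (SE 0.13) and 0.18 (SE 0.13) between the groups.

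**Figure D4:**
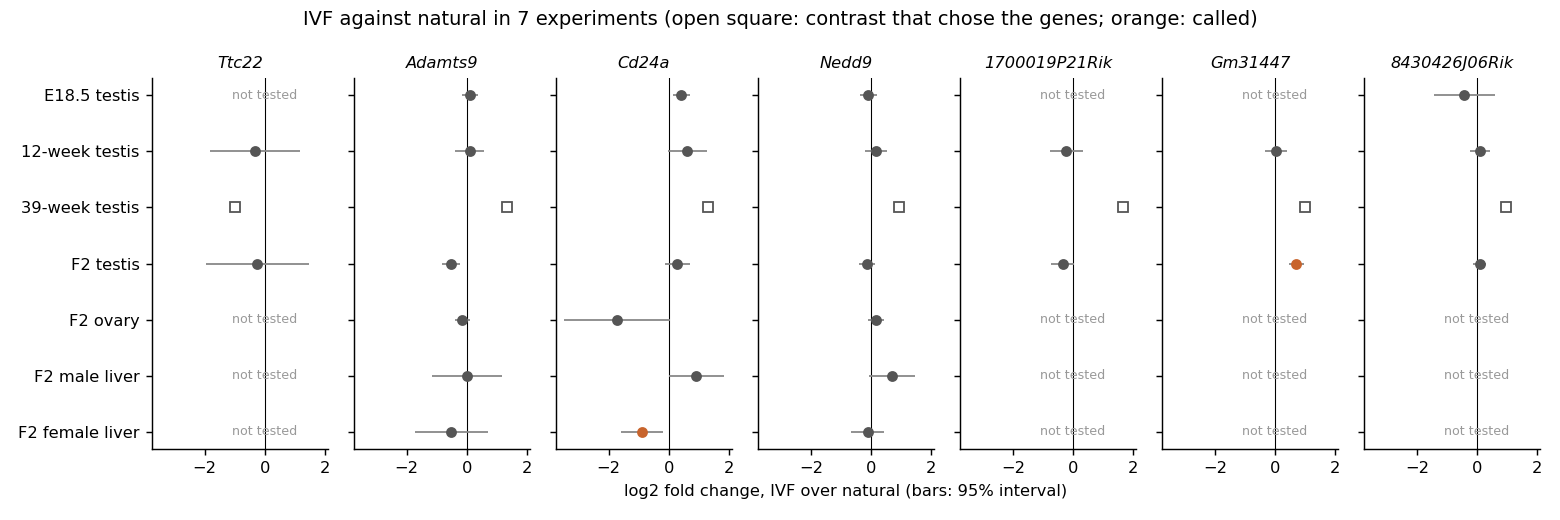
Log2 fold change of IVF over natural (horizontal axis) of each gene in the 7 experiments, with bars of a 95% interval except at 39 weeks. The bars use the normal distribution and are narrower than edgeR's test would give. For Cd24a in F2 male liver the bar, 0.0080 to 1.84, leaves out 0 although edgeR's unadjusted p was 0.0651. Orange points mark calls, Gm31447 at 0.72 in F2 testis and Cd24a at -0.90 in F2 female liver, open squares mark the 39-week values that chose the genes, and "not tested" marks genes below the filter or not listed.

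Among natural groups, Adamts9, Cd24a and Nedd9 had their highest mean in fetal testis, the next in ovary and low levels in adult testis and liver, while Ttc22 and the 3 noncoding RNAs were highest in adult testis. These comparisons join separate count tables, so age, tissue or sex and the table itself cannot be told apart in them, and their fits scale both tables together whereas CPM is scaled within each. All 6 genes that could be tested between 12-week and E18.5 natural testis were called, where 77.4% of 17009 genes were, 41.7% higher at 12 weeks and 35.7% lower. Adamts9 went from 127 to 206 CPM at E18.5 to 3.79 to 5.80 CPM at 12 weeks, a fall of 4.35 on the log2 scale (log2 fold change -4.35, SE 0.17). Nedd9 fell from 159 to 273 CPM to 4.84 to 7.60 CPM (log2 fold change -4.17, SE 0.19). Cd24a fell from 62.4 to 81.7 CPM to 3.70 to 6.97 CPM (log2 fold change -2.96, SE 0.16). No 12-week library came near the fetal range of these 3 genes.

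Ttc22 rose between the ages by 3.53 (SE 0.73) and 8430426J06Rik by 2.77 (SE 0.44) on the log2 scale, although the low 12-week natural testis for Ttc22, at 0.808 CPM, lay inside the fetal range of 0 to 1.99 CPM. 1700019P21Rik, at 2.22 to 5.25 CPM in 12-week testes, was at least 18.2-fold higher there than in the 4 fetal naturals on the scale of the fit, the bound set by a floor of 6 counts (3 read pairs) over the group.

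**Figure D5:**
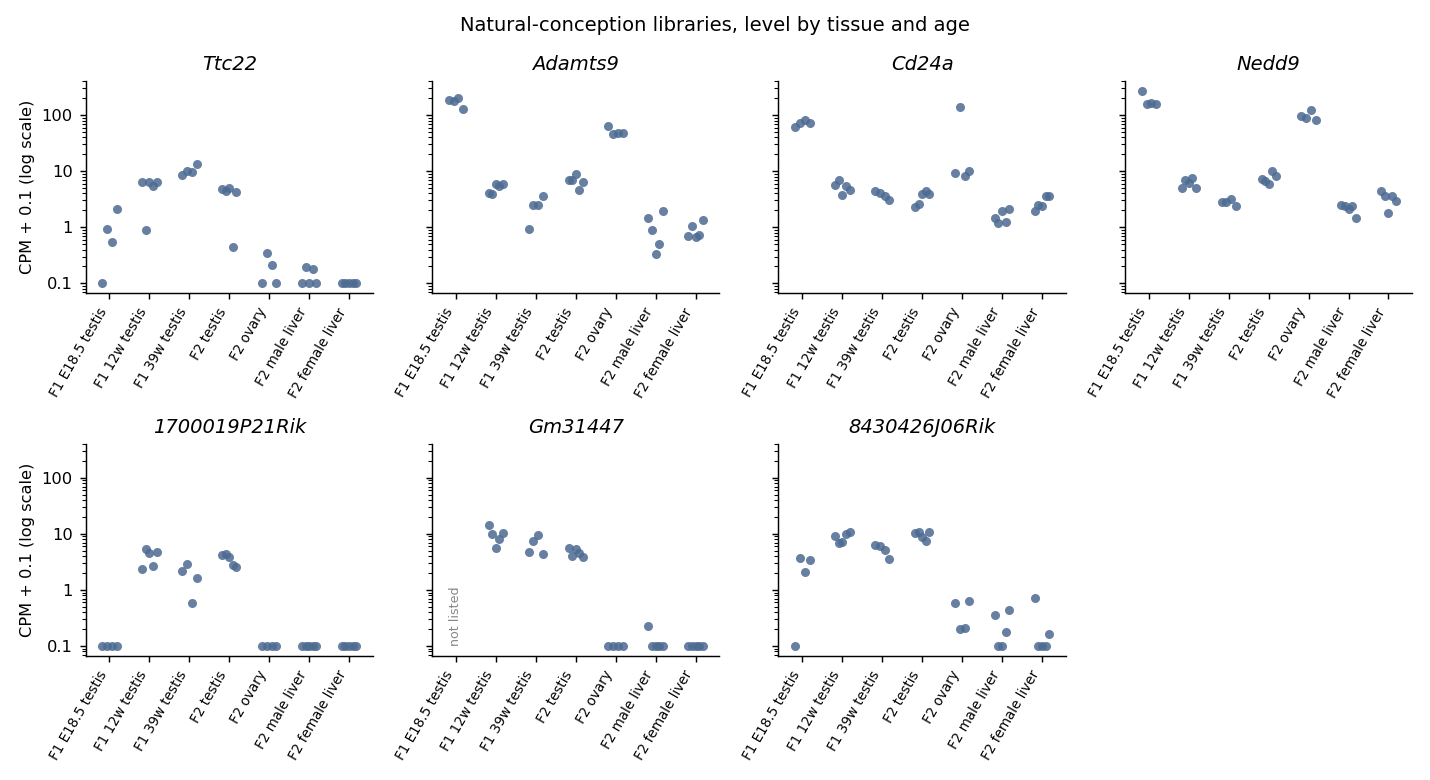
Level of each gene, as CPM plus 0.1 on a log scale, in the natural libraries of each tissue and age. Adamts9 and Nedd9 are highest in E18.5 testis and then ovary, and the noncoding RNAs 1700019P21Rik and Gm31447 lie higher in adult testes than in livers and ovaries, with no E18.5 value for Gm31447.

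Between F2 natural testis and F2 natural ovary all 7 genes were called, where 81.9% of 22389 genes were. Adamts9 measured 45.1 to 63.5 CPM in ovary and 4.53 to 8.86 CPM in testis (log2 fold change -2.58, SE 0.19). Nedd9 measured 83.0 to 123 CPM in ovary and 5.73 to 9.78 CPM in testis (-3.33, SE 0.17). The Cd24a value of -3.19 (SE 1.00) rested on the ovary that stood apart, and was -1.08 without it. Ttc22 reached at most 5 counts and 0.247 CPM in a natural ovary and was higher in testis by 5.95 (SE 1.02). 8430426J06Rik measured 7.30 to 10.5 CPM in testis and 0.0986 to 0.540 CPM in ovary (5.16, SE 0.40). No count of 1700019P21Rik or Gm31447 was found in any ovary, and their testis levels were at least 78.5-fold and 104-fold higher than the floor over the 4 natural ovaries on the scale of the fit.

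Against natural livers, F2 natural testis called 5 of 6 genes tested (86.7% of 20555 genes), and F2 natural ovary called 2 of 3 (72.1% of 16219). Adamts9 was higher than in liver by 1.98 (SE 0.39) in testis and 4.21 (SE 0.25) in ovary, and Nedd9 by 0.80 (SE 0.20) and 3.39 (SE 0.21). Cd24a was not called between testis and male liver (0.17, SE 0.25, adjusted p = 0.522, edgeR), but the value moved with the scaling. It was 0.53 with DESeq2 (adjusted p = 0.0532) and was called at 0.75 with at least 10 counts in every library (adjusted p = 0.0104), and CPM scaled within each table was 2.17 to 4.42 in testis and 1.08 to 2.02 in liver. Its log2 fold change of ovary over female liver did not pass (SE 0.97, adjusted p = 0.0545, edgeR) and was 0.14 without the ovary that stood apart. In male livers 1700019P21Rik was at 0 in all libraries, which places its testis level at least 32.7-fold above the floor on the scale of the fit, Gm31447 had 2 counts in 1 natural library, and Ttc22 had 6 counts over the 5 natural libraries. The 2 counts of Gm31447 were in natural replicate 1, 1 of the livers with spermatid markers, and the part of testis RNA in them was not tested.

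Per kilobase of exon, which allows genes to be compared, the noncoding RNAs had the highest means in 12-week natural testes of both generations. In F2 natural testes Gm31447 stood at 12.0 ± 2.07, 1700019P21Rik at 8.42 ± 2.00 and 8430426J06Rik at 5.56 ± 0.854 CPM per kb, above Cd24a at 1.30 ± 0.372, Nedd9 at 1.17 ± 0.245, Ttc22 at 1.12 ± 0.574 and Adamts9 at 0.440 ± 0.103 CPM per kb (SD, n = 5). The levels of Cd24a, Nedd9 and Ttc22 did not differ beyond their spread. In 39-week natural testes Ttc22 stood at 3.10 ± 0.595 and 8430426J06Rik at 3.06 ± 0.749 CPM per kb (SD, n = 4). These libraries were part of the contrast that chose the genes, so nothing is read from this likeness. In 12-week F1 naturals the means were 1.51 for Ttc22 and 5.15 CPM per kb for 8430426J06Rik. In E18.5 natural testes the order differed, with Nedd9 at 29.8 ± 8.71, Cd24a at 27.8 ± 3.05 and Adamts9 at 11.5 ± 2.22 CPM per kb ahead of 8430426J06Rik at 1.32 ± 0.973 and Ttc22 at 0.246 ± 0.257 CPM per kb (SD, n = 4).

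Genes related to the 7 were followed in 5 lists: the ADAMTS family with its substrates and inhibitor, the Cas family with focal adhesion signalling, CD24 partners, other tetratricopeptide genes and chromosomal neighbours. Between IVF and natural, edgeR called 0 genes of these lists in the F1 and F2 testes and in F2 ovary. An unadjusted p under 0.05 was reached by 0 to 7 genes of a list in these experiments, where lists had 4 to 41 tested genes and edgeR's share for the whole table came to 17.7% (E18.5), 12.9% (12 weeks), 10.5% (39 weeks), 13.9% (F2 testes) and 10.6% (ovaries). DESeq2 called 2 ADAMTS genes and 1 tetratricopeptide gene at E18.5, where it called 133 of all 15406 genes, and no list gene in the others. Between E18.5 and 12 weeks, 19 of 20 ADAMTS list genes fell and none rose, with a median log2 fold change of -3.67 against 0.15 over all genes, among them the versican-cleaving protease Adamts1 (-5.71, SE 0.15). In the Cas list 12 of 20 fell and 5 rose (median -1.27), where Itgb1, the integrin beta-1 chain, changed by -3.12 (SE 0.10) and Aurka, the mitotic kinase Aurora A, by 3.10 (SE 0.10). Of 41 other tetratricopeptide genes 25 rose and 9 fell (median 1.82), and of 6 CD24 partners 4 fell and none rose (median -1.71). Over all 17009 genes tested, 41.7% rose and 35.7% fell by the same rule. Markers of cell types moved in the same comparison. Elongating spermatid markers rose in 5 of 5 (median 13.19), while 5 of 6 endothelial (median -3.29), 5 of 7 Sertoli (median -2.35) and 4 of 5 peritubular myoid markers (median -1.82) fell, and their part in the changes of the lists was not tested.

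In livers the same lists held calls in both directions, as did all genes, with 13.9% higher and 17.2% lower in males and 21.6% higher and 17.8% lower in females. The Cas list had 2 higher and 6 lower of 18 genes in males and 5 higher and 4 lower of 18 in females, where Pxn, the focal adhesion adaptor paxillin, stood at -1.31 (SE 0.22) in males and 1.16 (SE 0.14) in females, and at -0.28 and -0.05 without a call once the GC trend was removed. The CD24 partner Hmgb1, a nuclear protein released from damaged cells, stood at 0.99 (SE 0.18) in males and -0.82 (SE 0.12) in females, and at 0.84 and -0.44 with the GC trend removed, where the second was no longer called. The tetratricopeptide list had 5 higher and 3 lower of 29 genes in males and 4 higher and 6 lower in females, and the ADAMTS list had 0 of 7 and 2 higher and 2 lower of 9. Of 12 neighbours, 1 was higher and 2 were lower in males, and 2 were higher and 2 lower in females. With the GC trend removed, calls over all genes went from 1669 higher and 2056 lower to 2647 and 236 in males. In females they went from 2701 and 2234 to 418 and 2971. The Cas list had 4 higher and 0 lower in males and 0 and 6 in females under this setting. It keeps the overall level of each library's trend on top of TMM scaling. The median of all genes moved to 0.35 in males and -0.30 in females. GC and this shift of all genes cannot be told apart in these counts, nor for Pxn and Hmgb1.

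Genes with the most similar levels across groups were named by Pearson's r of mean log2 CPM, over 14 groups, or 12 for Gm31447. Groups of 1 experiment share tissue and normalization. The closest was Zfp521 for Cd24a (r = 0.979), Lims1 for Nedd9 (0.995), Nrg3os for 1700019P21Rik (0.998), 4931400O07Rik for Gm31447 (0.999) and Sycp1 for 8430426J06Rik (0.996). For Adamts9 the closest of 16259 genes was Prickle2 (0.995), which lies 66365 bases from it on the chromosome. The groups include those of the contrast that chose the genes, and the part of that choice in each r was not tested. Sycp1 is on the same published list as 8430426J06Rik, so no link between these genes is read from their r. Deviations of 22 libraries of 12-week F1 and F2 testis from their group means were compared in the same way. The highest r of any of 18244 genes was 0.771 to 0.832 by member, and the closest to Ttc22 was Tbl1xr1 (0.791). Each r was picked as the highest of 18244 over 22 libraries, so no link between genes is read from it. The deviations of Ttc22 include its low libraries.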

How the data were processed

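RNA-Seq of 72 mouse libraries was used, grouped by GEO labels. Per the submitters' processing notes, reads were trimmed with Trimmomatic 0.32, mapped to mm10 with STAR 2.3.0e and counted with featureCounts 1.5.0. The count values are as deposited by the authors, whole numbers per gene without normalization, from a stranded mRNA kit. Group sizes follow the labels, which differ from those of the methods for F1 testis and of the series text for F2 female livers.

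Counts were filtered with filterByExpr and tested with edgeR 4.0.16 (TMM, quasi-likelihood test), and a gene was called at a Benjamini-Hochberg adjusted p under 0.05 over all genes tested and a change over 1.5-fold. CPM was computed within each experiment. Exon lengths and transcript GC content came from GENCODE transcripts (27944 of 37108 symbols), coordinates and promoters from RefSeq (GRCm38.p6). Since each read pair gives about 2 counts, the floor was 6 counts over a group, and floors cover counting error only, whereas the intervals of fold changes come from standard errors between libraries. The intervals use the normal distribution and are narrower than edgeR's quasi-likelihood test would give. Alternatives were DESeq2 1.42.0, its size factors, other filters, halved counts, a replicate block, removal of a GC trend, summing the closest pairs of libraries, and leaving out each library. The GC trend was taken from CPM without TMM factors and kept its overall level. It was added to the TMM scaling, so its removal also shifts all genes of a library. Related genes came from lists (Cas family, ADAMTS family, CD24 partners, Ttc genes, chromosomal neighbours), and from each list up to 3 called genes per comparison with the lowest adjusted p could be named. Members and lists were chosen with earlier results of these data known. Same-numbered replicates of natural and IVF groups correlated at -0.28 to 0.34 in their deviations. With no experiment above 0.1 in every pair, the numbers do not pair natural with IVF samples. Between F2 natural testis and male liver they correlated at -0.052 to 0.062, and 3 of 5 matched their own number best. Between ovary and female liver the range was -0.038 to 0.095, with 1 of 4. No 2 libraries agreed within sampling noise. A likeness value of Ttc22 across groups is not reported here.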

Additional observations from a re-analysis of the deposited data

Results flagged for a closer look

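Of 71 sets of 1 gene in 1 group, 5 held a library whose gap to the others took most of the range of the group by Dixon's criterion, and chance marks about 1 in 20 such sets. Ttc22 was low, at 0.808 CPM, in natural replicate 2 of 12-week F1 testes, and low, at 0.337 CPM, in natural replicate 4 of F2 testes. Nedd9 was high, at 273 CPM, in natural replicate 1 of E18.5 testes, and high, at 4.52 CPM, in IVF replicate 1 of F2 female livers. Cd24a was high, at 138 CPM, in natural replicate 2 of F2 ovaries, the library with 1068 CPM of Ovgp1. The interaction of sex and conception was called for Cd24a in F2 livers, at 1.82 on the log2 scale (adjusted p = 0.0110, edgeR). Of all 13073 genes tested, 52.9% were called for this interaction, and sex and count table cannot be told apart in it.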

How the results depend on the processing

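Counts of the 7 genes kept within 1.5 times their value in 69 of 76 alternatives that left out no library. The count was of genes called, but at 39 weeks of genes higher in IVF, where the choice of the genes had set the directions. The 76 also include a count of mean levels under other size factors. The number called fell from 1 to 0 in F2 female livers with no filter, with the replicate block, with the GC trend removed, and with both of the last. With at least 10 counts in every library, which tests fewer genes, it was 3 rather than 6 for 12-week against E18.5 testis, 2 rather than 5 for testis against liver and 3 rather than 7 for testis against ovary. Leaving out 1 library gave 0 to 1 calls in F2 female livers, 1 to 2 in F2 testes (2 without natural replicate 4), 2 to 3 for ovary against liver, 6 to 7 for testis against ovary, and the same count as with all libraries elsewhere. At 39 weeks 6 genes were higher in IVF in each alternative except the filter of at least 10 counts in every library. That filter left 5 genes, 4 of them higher. These libraries chose the genes and their directions, so nothing is read from the 39-week counts.

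Directions turned for values near 0 or resting on 1 library, and the cause was not tested. Adamts9 in F2 male livers, 0.00 with all settings as first given, was -0.043 with DESeq2 size factors, -0.26 with DESeq2, -0.14 with no filter, -0.84 with the replicate block and -0.58 with block and GC trend removed, and -0.26 to 0.45 with 1 library left out. Ttc22 in F2 testes was 0.19 with the replicate block. Leaving out 1 library gave -0.15 to 0.15 for Nedd9 at E18.5, -0.10 to 0.22 for Gm31447 and -0.085 to 0.24 for Adamts9 at 12 weeks, -2.05 to 0.47 for Cd24a in F2 ovaries, and -0.37 to 0.885 for the Adamts9 interaction in livers. The Cd24a call of testis against ovary was lost with the replicate block (adjusted p = 0.146), which changed no call of the genes beyond this and Cd24a in female livers. DESeq2 gave no adjusted p for 5 values.

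Counts of all genes called moved most at E18.5 (34, but 133 with DESeq2, 2 with the block and 1 with the GC trend removed), at 12 weeks (40, 70 with DESeq2 and 8 with the block), at 39 weeks (2, 92 with DESeq2, 7 with no filter, 4 with the block, 1 with the GC trend removed or pairs summed), in F2 ovaries (0, 88 with DESeq2, 2 with no filter or at least 10 counts) and in F2 testes (196, 336 with DESeq2 and 92 with the closest pairs summed). Leaving out 1 library gave 3 to 115 at E18.5, 6 to 90 at 12 weeks, 1 to 11 at 39 weeks, 0 to 3 in F2 ovaries and 111 to 224 in F2 testes. With block and GC trend removed, 2459 rather than 3725 genes were called in male livers (2295 higher and 164 lower, against 1669 and 2056). In female livers 2824 rather than 4935 were called (281 and 2543, against 2701 and 2234). Settings that remove the GC trend also shift all genes, so these counts do not give the part of GC alone. At least 10 counts in every library left 1490 in male livers, 2675 rather than 6913 for the interaction, and 8468, 8353, 5654 and 10432 rather than 13159, 17820, 11689 and 18330 for the comparisons between ages or tissues. DESeq2 size factors moved the median of all genes by 0.11 to 0.36 in the comparisons between tissues or ages and by less than 0.1 elsewhere.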
